A study of Ascaris suum with 10 samples.

Results

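The pig roundworm Ascaris suum has a set of 135 genes that were abundant in every stage and tissue sequenced and differed at most 4-fold between them, out of the 15446 genes of the deposited table (0.874%). Members were chosen by their measured values: the lowest of a gene's 8 RPKM values had to be 50 or more, and the highest at most 4 times the lowest. RPKM counts reads relative to gene length and to all reads mapped in that library, so it is relative to a library and not an amount of RNA per cell. Its sum over genes need not be the same in every column. The rule used all 8 columns, and every level, fold and count over these genes below is therefore a description with no test. At the limits of the rule, members ASG04190 and ASG11791 had lowest values of 50.2 RPKM each, and ASG08096 and ASG00187, with 49.8 and 48.5 RPKM, fell outside. Members ASG03531 and ASG12258 had highest values 3.97 and 3.96 times the lowest, and ASG05355 and ASG03437, at 4.01 and 4.05 times, fell outside. Without the testis column, the one that decided the count most, 222 genes met the rule, and without larva 202 did.

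Polyadenylated RNA came from a wild North American population of the worm. The columns are testis and ovary (germinal zones of adult worms), embryo, larva (second stage, day 7), and adult intestine, muscle with hypodermis, male carcass and female carcass, both carcasses being muscle, hypodermis, pharynx and neurons. The embryo column stands for 3 libraries, incubated for 24 hr (1 cell), 46 hr (1 to 2 cells) and 64 hr (2 to 4 cells), and every other column for 1 library. No treatment was applied, and the sources used here do not say how many worms a library holds. With no replicate libraries the spread between animals is unknown, and so is the read depth. Values carry 1 decimal, which at 50 RPKM rounds a value by at most 0.1%. The tissues could not be checked against their defining markers, because the table gives identifiers without gene names.

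Genes that every cell needs are often called housekeeping genes. They typically encode the machinery of protein synthesis, folding and turnover, energy metabolism and the cytoskeleton, and their transcripts serve as the reference against which the levels of other genes are read. In Ascaris somatic cells also lose part of the genome during the early cleavages, whereas germ cells keep it, and the genes lost in this way are absent from somatic cells. Which functions the 135 genes have is not known from the table, and they are called by their identifiers. In bulk tissue, fewer cells that express a gene and less RNA per cell cannot be told apart.

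In every column the members stood above the median of all genes, which ran from 1.7 RPKM in intestine to 11.3 in embryo. Their geometric means over the 8 columns ran from 71.8 to 969 RPKM, with a median of 186.5. ASG01939 had the highest geometric mean, with 443 RPKM in testis, 659.9 in ovary, 1064.7 in embryo, 1411.8 in larva, 1097.1 in intestine, 708.4 in muscle, 1424.1 in female carcass and 1596.7 in male carcass. ASG04999 followed, with 525 RPKM in testis, 884 in ovary, 583.3 in embryo, 1196.2 in larva, 1903.2 in intestine, 994.1 in muscle, 1059.9 in female carcass and 1157 in male carcass. Testis was the lowest column for each, and the highest was male carcass for the first and intestine for the second. The members made up 42.5% of the 318 genes whose lowest value was 50 RPKM or more, and the other 183 exceeded the fold limit. Those 183 had a median geometric mean of 282.7 RPKM.

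Even expression was a matter of degree. The median ratio of a member's highest to its lowest value was 3.11, with quartiles of 2.63 and 3.48, and 126 of the 135 genes differed by 2-fold or more between some pair of columns. The flattest was ASG10532, with 166 RPKM in testis, 151.7 in ovary, 182 in embryo, 127.1 in larva, 183.8 in intestine, 130.9 in muscle, 168.6 in female carcass and 127.4 in male carcass, a ratio of 1.45. ASG06273 came next at a ratio of 1.46, with 136.5 RPKM in testis, 99.6 in ovary, 128.3 in embryo, 118.3 in larva, 93.6 in intestine, 98.4 in muscle, 123.2 in female carcass and 127.7 in male carcass. These were the only members with a ratio under 1.5. No pair of members had the same profile: the closest pair, ASG12435 and ASG13533, differed by up to 0.3 on the log2 scale in a column. Whether near-identical gene copies share reads among the members was not tested.

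Larva and embryo held the highest value of a member most often, and testis and muscle the lowest. As deposited, 36 members peaked in larva, 31 in embryo, 17 in ovary, 12 in intestine, 12 in male carcass, 11 in female carcass, 6 in muscle and 10 in testis. Among the 9993 genes above 0 in every column, the shares with their highest value in those columns, in the same order, were 17.6%, 39.3%, 10.7%, 9.77%, 4.53%, 3.25%, 5.85% and 8.76%. Together embryo and larva were highest for 67 members, or 49.6%, where 39.3% of the 9993 genes were highest in embryo and 17.6% in larva. The lowest value lay in testis for 45 members, muscle for 34, embryo for 12, larva for 11, ovary for 10, intestine for 10, female carcass for 8 and male carcass for 5. Over the same 9993 genes the lowest value lay in testis for 28.3%, in muscle for 25.9%, in embryo for 2.93%, in larva for 3.18%, in ovary for 1.80%, in intestine for 24.3%, in female carcass for 4.84% and in male carcass for 2.87%, and 588 genes with a tied lowest value and 25 with a tied highest value were given to no column. No member had a tie. The rule used these values, and nothing is read from the differences between members and all genes. The most frequent combination was highest in larva and lowest in muscle, with 19 members, followed by highest in embryo and lowest in testis, with 15. These combinations were not counted over all genes, and nothing is read from them.

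In some columns most members lay on the same side of their own mean. The median member stood at 162.1 RPKM in testis, 163.8 in muscle, 199.6 in intestine, 201.9 in male carcass, 203.5 in embryo, 219.6 in female carcass, 228.8 in larva and 232.2 in ovary. The shift of a column was taken as the median over members of log2 of the value over the gene's own geometric mean. It was -0.41 in muscle (quartiles -0.65 and 0.05), -0.39 in testis (-0.75 and -0.03), 0.0 in ovary (-0.26 and 0.37), 0.01 in intestine (-0.30 and 0.34), 0.13 in male carcass (-0.15 and 0.40), 0.14 in female carcass (-0.09 and 0.34), 0.16 in embryo (-0.32 and 0.51) and 0.26 in larva (-0.27 and 0.66). In testis 102 of the 135 genes lay below their own mean, and in muscle 97 did. Above their own mean were 91 in female carcass, 86 in larva, 82 in embryo and 81 in male carcass. From muscle to larva the shift amounted to 0.67 on the log2 scale, or 1.59-fold. That is a difference between column medians and not a ratio taken gene by gene. Compared gene by gene, 66 members were higher in larva than in embryo and 69 were higher in embryo, with a median log2 ratio of -0.05. Within a column the members spread widely around the median, with interquartile ranges from 0.43 in female carcass to 0.93 in larva, and neighbouring columns such as embryo and the carcasses did not stand apart.

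**Figure D1:**
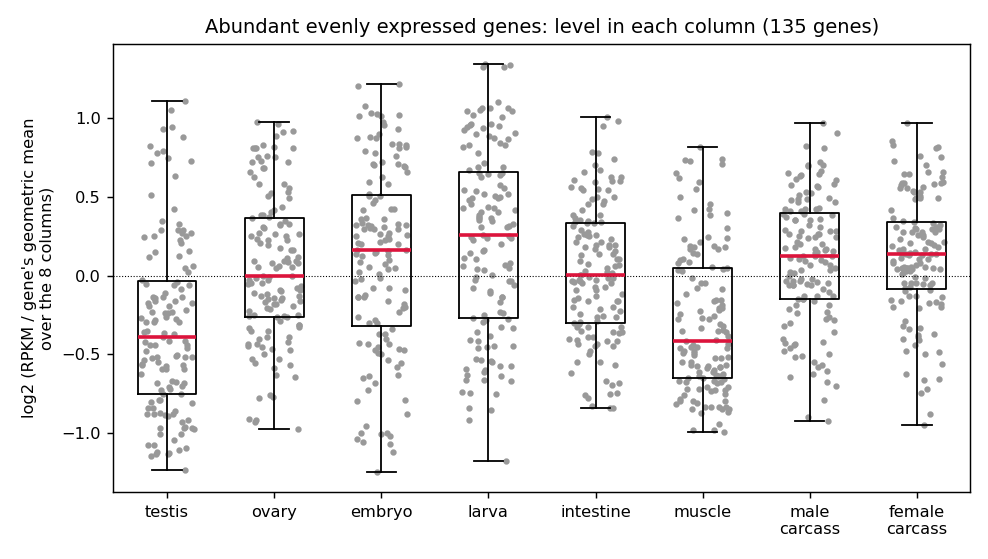
Level of each of the 135 genes (points) in the 8 columns, as log2 of RPKM over the gene's own geometric mean. Boxes give quartiles, red lines the medians and whiskers the full range. The medians of testis (-0.39) and muscle (-0.41) lie lowest and that of larva (0.26) highest, and the boxes of all columns overlap.

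Ranks, which no rescaling of a column can change, gave another order. The median member was the 338th most abundant gene in larva and the 341st in ovary. Its median rank was 444 in intestine, 450 in embryo, 539.5 in female carcass, 559.5 in testis, 575 in male carcass and 577 in muscle. Male carcass, slightly above average in RPKM, thus lay beside testis and muscle in rank. Among the 100 highest genes of a column, 23 were members in larva, 22 in embryo, 10 in ovary, 4 in intestine, 2 in female carcass, 1 in testis, 1 in male carcass and 0 in muscle.

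Summed RPKM differed between columns, from 564412 in larva and 583660 in embryo to 805258 in testis and 821149 in female carcass. The share of a column's summed RPKM taken by the members varied 2.48-fold. It was 3.78% in testis, 4.34% in muscle, 5.28% in female carcass, 5.41% in intestine, 5.52% in male carcass, 6.26% in ovary, 6.88% in embryo and 9.36% in larva. The share held by a column's 10 highest genes was 29.3% in testis, 34.6% in intestine, 20.6% in ovary, 18.9% in female carcass, 15.1% in muscle, 15.2% in male carcass, 9.81% in larva and 6.79% in embryo. The 100 highest genes held 58.6% in testis, 57.0% in intestine, 49.3% in muscle, 48.1% in female carcass, 45.5% in male carcass, 38.8% in ovary, 31.3% in larva and 19.7% in embryo. Without the 100 highest genes of each column, members among them included, the order changed. This left out 23 members in larva and 22 in embryo but 0 in muscle, so the shares cover unlike sets of members. The members then took 11.1% in intestine, 9.77% and 9.51% in the male and female carcass, 8.83% in testis, 8.56% in muscle, 8.12% in ovary, 6.85% in larva and 5.19% in embryo. The part of a few very abundant transcripts in the shifts was not tested.

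The shift was not the same at all levels of expression. Among the 45 members of highest mean level (310 to 969 RPKM), larva stood at 0.78 on the log2 scale with quartiles of 0.37 and 0.96, and it was the highest column for 24 of them. Among the 45 of lowest mean level (71.8 to 134 RPKM), larva stood at 0.04 with quartiles of -0.29 and 0.31, and it was highest for 7. In embryo the order was the opposite, with 0.32 for the low group and -0.03 for the high group, and in ovary it was 0.22 and -0.20. Male carcass moved from -0.02 to 0.35. Testis and muscle were below average in both groups, at -0.28 and -0.37 in testis and at -0.35 and -0.49 in muscle. With the groups formed on the mean of the other 7 columns, the median of larva over that mean was 0.07 for the low group, 0.13 for the middle group and 0.73 for the high group. Spearman's rho across the 135 genes between that log2 ratio and the mean of the other columns was taken for each column. It was 0.35 in larva, 0.28 in male carcass, -0.34 in embryo and -0.37 in ovary. Elsewhere rho was -0.25 (intestine), -0.22 (muscle), -0.19 (testis) and 0.21 (female carcass). The mean of the other columns is also the divisor of the ratio, which draws rho toward negative values. The 50 RPKM limit does so too, because members of low level cannot fall far in any column. Nothing is therefore read from the negative values. A gene's deviations from its own mean sum to the same total in every gene, so the positive values are not independent of the negative ones. The genes share their libraries, and rho is given as a description.

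Other gene sets put the columns on other scales. For 231 genes that kept to the same 4-fold limit with a lowest value from 10 to under 50 RPKM, the shift was -0.59 in testis, -0.29 in muscle, 0.51 in embryo, 0.26 in ovary and 0.17 in larva, and the carcasses lay below average, at -0.07 in male and -0.13 in female. For the 318 genes at 50 RPKM or more with no fold limit it was -0.58 in testis, -0.44 in muscle, 0.37 in larva and 0.11 in embryo. For the 9993 genes above 0 in every column, whose median ratio serves as a common scale for such tables, it was -0.90 in testis, -0.86 in muscle, -0.76 in intestine, -0.26 in male carcass, -0.14 in female carcass, 0.64 in ovary, 0.71 in larva and 1.30 in embryo. Embryo exceeded testis 4.56-fold by that scale and 1.47-fold by the members. Split by geometric mean, the 5176 genes from 1 to under 10 RPKM had an embryo shift of 1.59 and an intestine shift of -1.14. The 218 genes at 200 RPKM or more had -0.06 and -0.10. Testis stayed low in every level group, between -1.02 and -0.65.

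**Figure D2:**
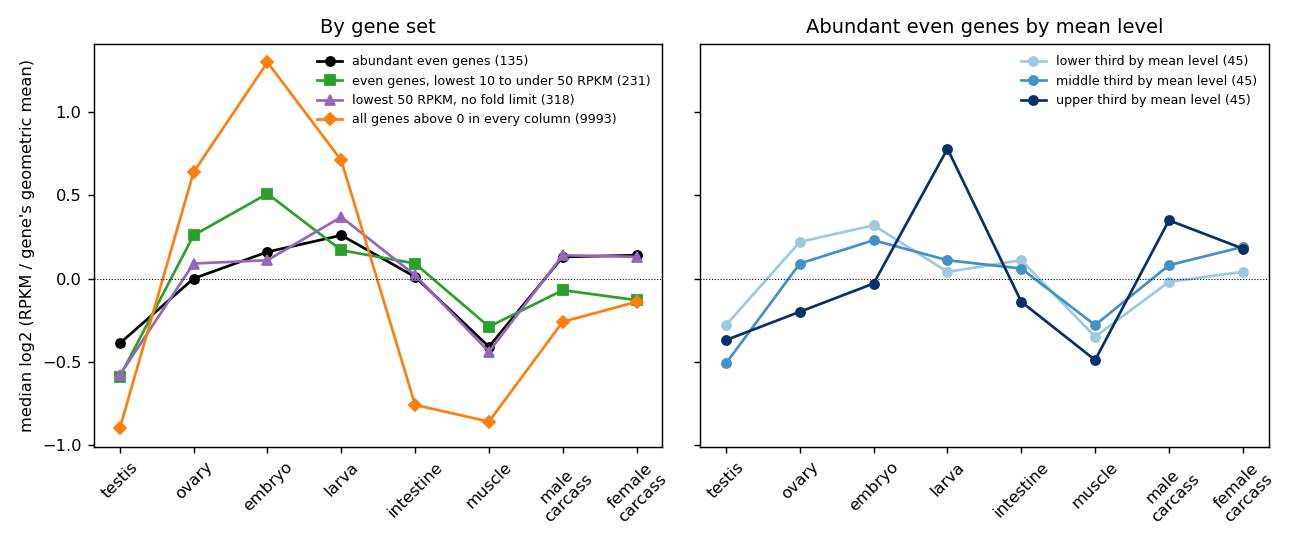
Median log2 of RPKM over the gene's own geometric mean in each column. Left, the 135 genes, the 231 even genes of lower level, the 318 abundant genes without a fold limit and the 9993 genes above 0 in every column; right, the 135 genes in 3 groups of 45 by mean level. The embryo value runs from 0.16 for the 135 genes to 1.30 for the 9993, and larva reaches 0.78 in the most abundant group only.

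Which column appeared high or low for the members thus depended on the scale. When columns were divided by the median ratio of the 9993 genes, embryo became the lowest column for 89 of the 135 members, against 12 as deposited, and testis for 0, against 45 as deposited. Intestine was then highest for 46, testis for 36 and larva for 3. When columns were brought to an equal sum, larva was highest for 52 and testis lowest for 67. When the shift of the members themselves was removed, the highest value lay in larva for 26, muscle for 26, testis for 20, embryo for 18, ovary for 17, intestine for 13, male carcass for 9 and female carcass for 6. The lowest value then lay in embryo for 25, larva for 25, testis for 18, intestine for 17, male carcass for 15, female carcass for 13, ovary for 12 and muscle for 10. The shares of all genes were taken as deposited only, and nothing particular to the members is read from these counts.

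**Figure D3:**
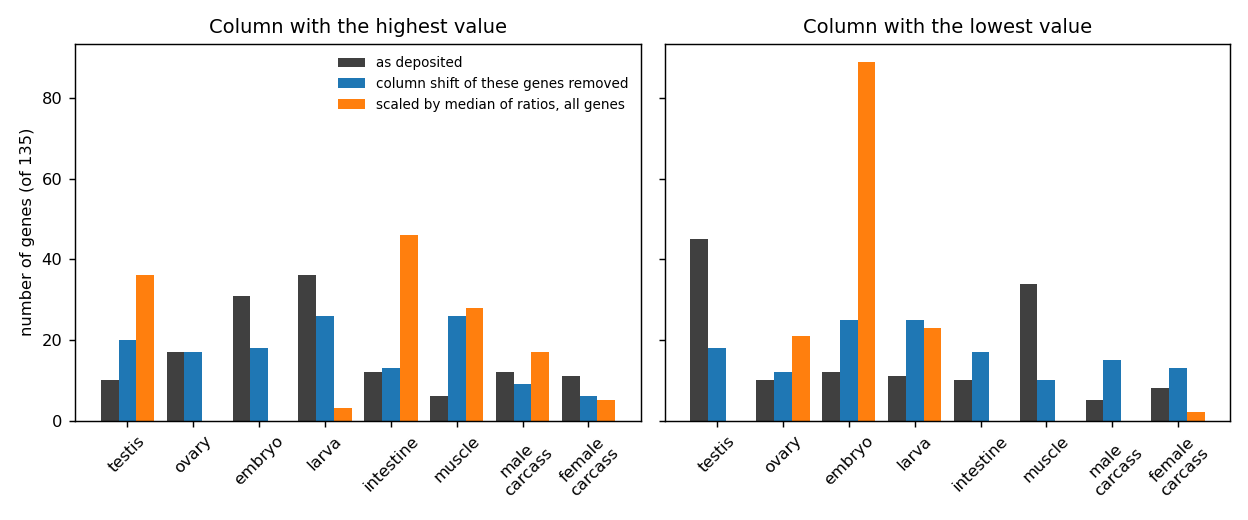
Number of the 135 genes whose highest (left) or lowest (right) value lies in each column, as deposited, with the column shift of these genes removed, and with columns scaled by the median ratio of all genes above 0. As deposited, testis is lowest for 45 genes. Scaled by the median of ratios, embryo is lowest for 89. Shares of all genes were taken as deposited only.

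Most members kept a difference between tissues once the shift was removed. The median range over the columns narrowed from 3.11-fold to 2.67-fold. It became narrower for 80 genes and wider for 55, and 15 genes then exceeded 4-fold. In all, 16 of the 135 spanned less than 2-fold after removal and 9 as deposited, with 4 genes common to these counts. The flattest member as deposited, ASG10532, then spanned 2.05-fold. A single offset per column thus left most of the range in place. Past 2-fold, members lay only above their own mean in testis and muscle, and on both sides of it in larva and embryo. After removal, 12 genes stood 2-fold or more above their own mean in testis, 8 in muscle, 4 in larva and 2 in embryo, and 11 stood as far below it in embryo, 5 in larva, 2 in female carcass and 2 in male carcass. Since the rule fixed the deposited range, genes low in testis or muscle could not fall much further there. These counts were not taken over other genes, and nothing particular to the members is read from them. Embryo, larva and testis carried 18.0%, 17.9% and 15.9% of the summed squared deviation, and male and female carcass 8.53% and 7.72%.

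**Figure D4:**
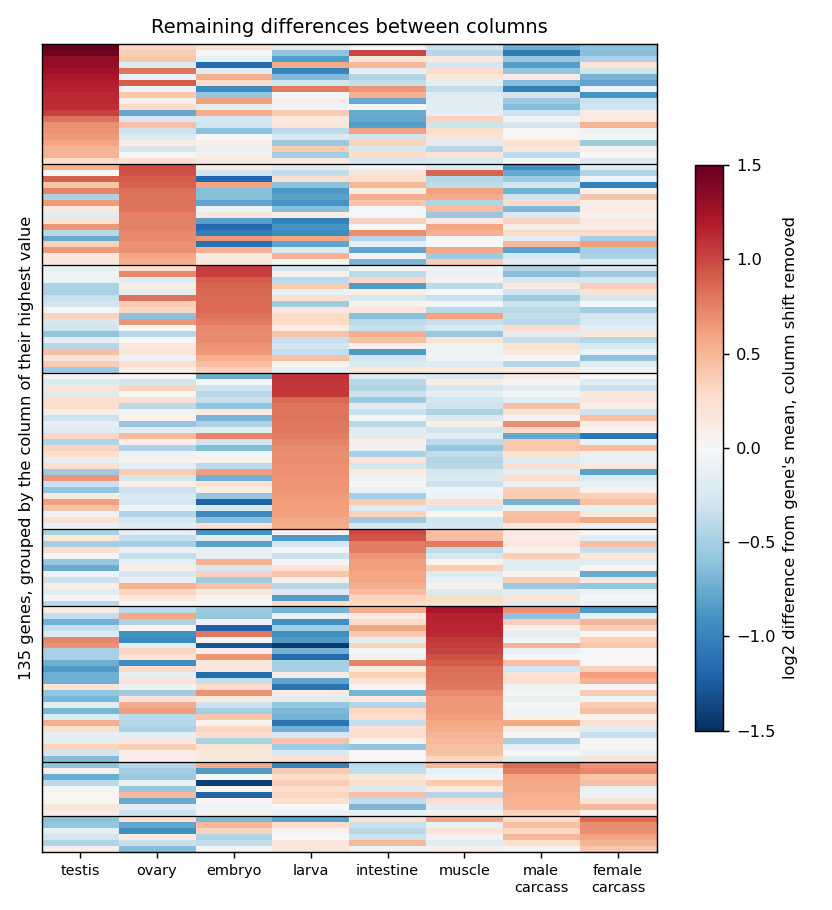
Deviation of each of the 135 genes (rows) from its own mean log2 RPKM in the 8 columns after the column shift was removed, red above and blue below. Rows are grouped by the column of the highest value, from 26 genes each for larva and muscle to 6 for female carcass.

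Members are singled out next, for each column, by their deviation from their own mean log2 level after removal of the shift, and not by their RPKM, which was higher or lower in other members. On this scale testis gave the widest upward deviation of a single member. As deposited, larva did, with ASG02260 at 1.34 above its own mean on the log2 scale, against 1.11 for ASG09668 in testis. ASG09668 had 266.8 RPKM in testis, 155.4 in ovary, 159.3 in embryo, 129.3 in larva, 120.5 in intestine, 74.7 in muscle, 88.8 in female carcass and 81.4 in male carcass, which put testis 2.82-fold above its mean after removal of the shift. It was lowest in the 3 columns that contain body-wall muscle. ASG07350 was the member furthest below its own mean in testis, with 58.2 RPKM there, 165.6 in ovary, 169.1 in embryo, 116.9 in larva, 150.3 in intestine, 183.6 in muscle, 192.8 in female carcass and 122.8 in male carcass. Every other column was 2-fold or more above testis. In ovary the member furthest above its own mean was ASG02540, with 155 RPKM in testis, 274.9 in ovary, 166.2 in embryo, 150.2 in larva, 136.8 in intestine, 91.5 in muscle, 135.4 in female carcass and 80.9 in male carcass, and the one furthest below was ASG11721, with 78 RPKM in ovary, 192.1 in testis, 167.6 in embryo, 101.6 in larva, 139.7 in intestine, 240.2 in muscle, 215.1 in female carcass and 162.1 in male carcass. ASG11721 had its highest values in muscle and female carcass.

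The members furthest above and below their own mean in embryo were ASG10664 and ASG12129, and in larva ASG02260 and ASG15384. ASG10664 stood at 246.5 RPKM in embryo against 75 in testis, 126.2 in ovary, 103.5 in larva, 106.2 in intestine, 76.3 in muscle, 96.9 in female carcass and 85 in male carcass. Embryo was nearly 2-fold above the next column, ovary. ASG12129 showed the reverse, with 181.9 RPKM in embryo against 250 in testis, 398.7 in ovary, 666.4 in larva, 512.8 in intestine, 426.8 in muscle, 645.7 in female carcass and 702 in male carcass. For larva, ASG02260 reached 871.8 RPKM, against 270.5 in testis, 342 in ovary, 231 in embryo, 308.6 in intestine, 221.4 in muscle, 376.9 in female carcass and 413.8 in male carcass. Male carcass was the next column. ASG15384 had 58.7 RPKM in larva and 61.2 in embryo, but 162.1 in testis, 118.2 in ovary, 168.5 in intestine, 203.8 in muscle, 194.9 in female carcass and 208.2 in male carcass, so embryo and larva lay together below all adult columns.

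Among adult somatic tissues ASG14501 parted intestine from the rest, with 451.2 RPKM in intestine and 466 in testis, against 289.6 in ovary, 252 in embryo, 178.7 in larva, 125.9 in muscle, 159.2 in female carcass and 118.4 in male carcass. After removal of the shift it was the member furthest above its own mean in intestine and furthest below it in male carcass, with a range of 5.63-fold, the widest of all 135. ASG02790 was furthest below its own mean in intestine, at 75.6 RPKM against 141.3 in testis, 156.4 in ovary, 238.2 in embryo, 126.3 in larva, 97 in muscle, 140.6 in female carcass and 164.8 in male carcass. ASG06971 was furthest above its own mean in muscle and parted the carcasses. It had 187 RPKM in muscle, 186.3 in male carcass, 156.7 in intestine and 64.6 in female carcass, with 88.3 in testis, 81 in ovary, 82 in embryo and 78 in larva. ASG11612 was furthest below its own mean in muscle, at 61.6 RPKM against 176.4 in male and 184.9 in female carcass, 117.4 in testis, 88.5 in ovary, 87.2 in embryo, 238.5 in larva and 116.3 in intestine. In male carcass ASG09931 was furthest above its own mean, with 455.5 RPKM there, 408.2 in female carcass, 384 in embryo, 247.7 in muscle, 176.5 in intestine, 172.4 in ovary, 139.4 in larva and 116.4 in testis. In female carcass the member furthest above its own mean was ASG10586, with 219.6 RPKM there, 127.5 in muscle, 150.6 in male carcass, 130.2 in intestine, 134.8 in ovary, 79.5 in embryo, 76.7 in larva and 56 in testis. The one furthest below was ASG00626, with 110.6 RPKM there, 144.4 in muscle, 136.6 in male carcass, 191 in intestine, 201.9 in testis, 300.1 in ovary, 398.2 in embryo and 433.3 in larva, and its 4 adult somatic values were its lowest.

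Gonads and soma were then compared as blocks. As deposited, testis and ovary both lay above all 4 adult somatic columns for 13 members (9.63%), where 22.4% of the 15446 genes did so, and below them for 22 members (16.3%), against 8.65%. With the shift removed the counts turned, to 21 above and 17 below. Embryo and larva both lay above all 6 adult columns for 14 members (10.4%; 21.8% of all genes) and below them for 4 (2.96%; 0.991% of all genes). With the shift removed these counts also turned, to 6 above and 10 below. The rule limits such differences in the members, so nothing is read from the distance to the shares of all genes. Removal of the shift centres each column on the median of these same members, so nothing is read from the turned counts either. The shares of all genes are as deposited only.

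Paired columns were compared over the members and over all genes. In testis against ovary the median log2 ratio of the members was -0.44, and it was -1.34 over 8047 genes above 0 in both columns that reached 10 RPKM in either. Testis was 2-fold or more higher for 3 members and ovary for 24 as deposited, and for 9 and 6 with the column shift removed, which turned the direction. As deposited, 21.7% and 57.8% of all genes that reached 10 RPKM in either column, zeros included, passed. In embryo against ovary the medians were 0.07 for members and 0.69 for the genes above 0. Embryo was 2-fold higher for 12 members and ovary for 12 as deposited, and for 10 and 18 with the shift removed, and 40.8% and 13.5% of all genes passed as deposited. In larva against embryo the medians were -0.05 and -0.55, and larva was 2-fold higher for 25 members and embryo for 11 (23 and 14 with the shift removed), where 19.7% and 37.4% of all genes passed. In intestine against muscle the medians were 0.32 and 0.51, and intestine was 2-fold higher for 17 members and muscle for 0, where 36.8% and 31.2% of all genes passed. With the shift removed this direction turned too, to 4 members higher in intestine and 10 in muscle. In male against female carcass the medians were -0.01 and -0.10, and male was 2-fold higher for 1 member and female for 2 on either scale, where 15.7% and 16.9% of all genes passed. The medians lay nearer to 0 for the members in all 5 pairs. The 4-fold limit lowers the counts among members and draws their medians toward 0. Removal of the shift centres each column on these same members, which draws the counts of the 2 directions together. Nothing is read from a direction that turned, and no share of all genes is given with the shift removed. These pairs share columns and are not independent of each other.

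The carcasses, listed with the same tissues, were the most alike of the 28 pairs of columns. The SD over members of the log2 ratio was 0.41 between them, and 116 of the 135 genes lay within 1.5-fold after removal of the shift. Muscle with female carcass followed at 0.53, intestine with muscle at 0.57 and muscle with male carcass at 0.59. Testis and ovary had 0.66. The widest pairs were larva with muscle at 0.94, with 56 genes within 1.5-fold, testis with embryo at 0.87 and embryo with larva at 0.85. The carcass pair was also the closest among the 231 even genes of lower level (SD 0.55) and among the 183 abundant genes beyond the fold limit (SD 0.52). Larva with muscle was the widest among those 183 too (SD 1.93), but embryo with intestine was the widest among the 231 (SD 0.83), and there embryo with larva was the fourth closest (SD 0.64). By SD the place of embryo with larva in the order thus differed between sets, whereas that of the carcasses was the same in all 3. By the number of genes within 1.5-fold, the carcass pair (165 of the 231) came after muscle with male carcass (167) and muscle with female carcass (166).

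**Figure D5:**
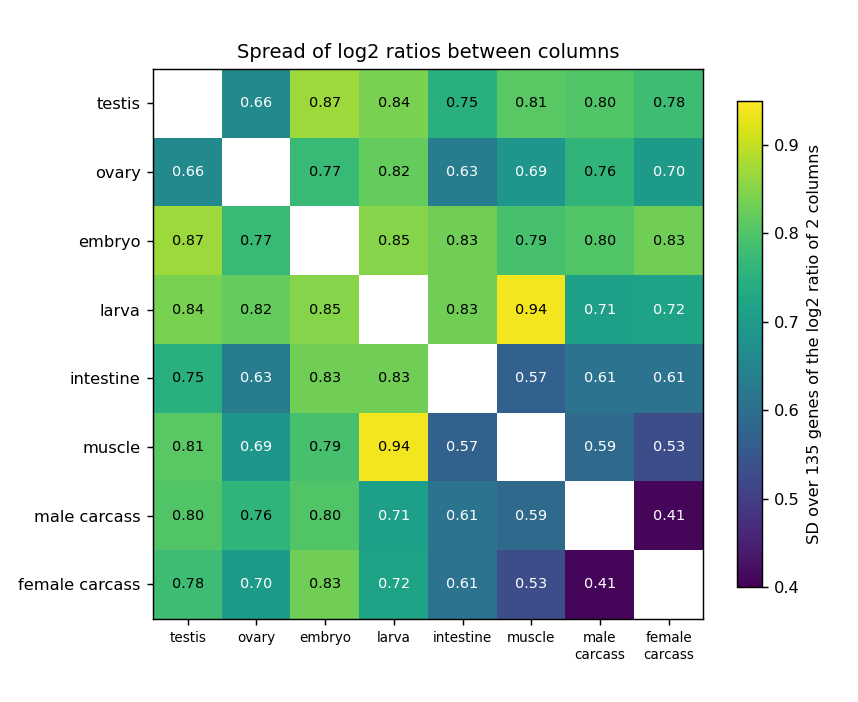
SD over the 135 genes of the log2 ratio between each pair of columns; darker is more alike. The carcass pair has the lowest value (0.41) and larva with muscle the highest (0.94).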

How the data were processed

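The authors deposited RPKM values for 15446 genes in 8 columns; the unit is theirs. Per the submitters' processing notes, TopHat and Cufflinks were used. The sources used here do not give versions, genome build, annotation, gene lengths, read totals or the way the 3 embryo libraries became 1 column. Whole reads could not be recovered from rounded values of unknown gene length, so no interval from counts is given. Columns were matched to samples by title.

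Members were found by the rule on the values as deposited, with no pseudocount. The column shift, its removal, the counts of highest and lowest columns and the pair ratios were computed in Python 3.11.15 with pandas 2.3.3 and numpy 2.4.6. Only the column shift, taken once and with the rule repeated, was tested on simulated tables. Those tables had a single offset per column at all levels of expression. A library per tissue allows no test across samples. Identifiers are named by rule: the flattest 2, the most abundant 2, those nearest each limit, and in each column the members furthest above and below their own mean log2 level after removal of the shift. ASG12435 and ASG13533 fall outside it and were chosen after their values were seen. The members and lists were chosen with earlier results of these data known. Gene lists and tissue markers set down for this work could be matched to no identifier and no sequence was used. Groups by mean level, ranks, block counts and shares without the 100 highest genes were added after the data were seen.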

Additional observations from a re-analysis of the deposited data

How the results depend on the processing

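No paired analysis was possible because each column stands alone and the result comes from no test; leaving out an embryo library was not possible either. A shift counted as changed past 0.32 on the log2 scale and a count past 1.5-fold. The 135 members became 212 at a lowest value of 25 RPKM, 71 at 100 RPKM, 62 at a limit of 3-fold, 83 (75 of them members) with columns at an equal sum and 222 without the testis column. Scaling by the upper quartile gave 122 genes, with 54 members among them, and the median of ratios gave 93, with 32. With the median of ratios over all genes, the shift was -0.90 in testis, 0.64 in ovary, 1.30 in embryo, 0.71 in larva, -0.76 in intestine, -0.86 in muscle, and turned to -0.26 in male and -0.14 in female carcass. With the even genes of 10 to under 50 RPKM, it was 0.51 in embryo and turned to -0.07 in male and -0.13 in female carcass. With the rule repeated on rescaled columns until the list was stable (180 genes, 94 of them members), larva rose from 0.26 to 0.65. The 36 members highest in larva became 4 with the upper quartile and 3 with the median of ratios, and the 45 lowest in testis became 6 and 0, or 18 with the shift removed. The median range after removal of the shift, 2.67-fold, was 5.18-fold with the median of ratios. The other 88 of the 111 recomputed values stayed within these limits, pseudocounts and every other column left out included. Part of this was fixed beforehand. A pseudocount of 1 or 5 RPKM is small beside values of 50 RPKM or more, and leaving out a column cannot remove a member. Nothing is therefore read from the number 88. The causes were not tested. Without read totals or replicate libraries, the error of a value is unknown.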

Other observations

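After removal of the column shift, the deviations of the 135 genes in male and female carcass went together across genes (Pearson's r = 0.48), followed by muscle and female carcass (0.23), intestine and muscle (0.17) and testis and ovary (0.15). The most opposed columns were larva and muscle (r = -0.62) and ovary and male carcass (-0.52). Deviations from a gene's own mean sum to the same total in every gene, which makes most of the 28 correlations negative by construction, and 21 were. The values are across genes of the same libraries and carry no test.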
